A study of Mus musculus with 9 samples.

Results

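Chondroitin sulfate is a sugar chain that is built on the serines of proteoglycan core proteins in the Golgi. Synthesis starts with a linker of xylose, galactose and glucuronic acid, the first N-acetylgalactosamine commits the chain to chondroitin, and synthases then add glucuronic acid and N-acetylgalactosamine in turn before sulfotransferases and an epimerase modify the chain. Bone and cartilage matrix are rich in these chains, and their epimerised form is dermatan sulfate. Transcripts of 10 genes for these enzymes, of 55367 genes in the deposited table, were compared between Myc-knockin and p53-driven osteosarcomas of the mouse. The genes were Xylt1, Csgalnact1, Csgalnact2, Chsy1, Chsy3, Chpf, Chst3, Chst11, Ust and Dse, matched by their symbols in the table, and all 10 passed the filter on low counts.

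Tumors that arose spontaneously were resected whole and profiled by RNA-Seq, 4 from p53-driven mice (Col2.3-Cre/TrpP53fl/+) and 5 from Myc-knockin mice (Cre-Lox-Stop-Lox, with the alleles (LSL)-c-MycT58A and p53fl/+). The mice of both groups carried 1 floxed allele of Trp53, and by the methods Cre was driven in both by the osteoblast-specific Col2.3 promoter. The Myc-knockin mice carried in addition a Myc T58A allele behind a stop cassette that Cre removes, and the labels give no ages. The paper reports a shorter median time to sacrifice for Myc-knockin than for p53-driven mice, so age and genotype cannot be told apart here. The columns of the table are named F187, F325, F331 and F368 for p53-driven tumors and M351, M408, M9, M624 and M664 for Myc-knockin tumors; the names M351, M9 and M664 were placed only by their first letter, and no column could be tied to a numbered sample.

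The libraries held between 2716322 and 17073285 counts. Expression is given as CPM, the count scaled to the TMM-normalized library size, and the genotypes were checked first on Myc, which averaged 577 ± 391 CPM (n = 5, SD) in Myc-knockin and 54.3 ± 11.3 CPM (n = 4, SD) in p53-driven tumors, without overlap. Trp53, of which both genotypes carry a floxed allele, had 10.04 ± 2.36 CPM (n = 4, SD) in p53-driven and 14.7 ± 14.03 CPM (n = 5, SD) in Myc-knockin tumors (log2 fold change 0.58, edgeR adjusted p = 0.569). Libraries of the same genotype differed in their content. Counts on 11 satellite-repeat genes made up 44.3% of library F187, 67.9% of M351, 23.2% of M408 and 81.0% of M9, and in the same libraries reads fell on chemosensory receptor genes, from which a genomic background per kilobase of exon was estimated. M624 and M664 stood apart by Rn7sk, which carries no poly(A) tail, at 3.47 and 6.35 CPM where no other library was below 6545 CPM, although the methods describe oligo-dT enrichment without exception. Comparisons were therefore repeated without this pair. Leaving out the 4 libraries with satellite reads leaves M624 and M664 as the only Myc-knockin tumors. In that fit genotype and this library difference cannot be told apart. The osteoblast markers Ibsp and Sp7 were detected in every tumor, with at least 34.1 and 25.9 CPM.

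In mm10, 4 of the 10 genes are on chromosome 10: Ust (ENSMUSG00000047712, 8204756 to 8518825), Dse (ENSMUSG00000039497, 34151393 to 34207715), Chst3 (ENSMUSG00000057337, 60181532 to 60219260) and Chst11 (ENSMUSG00000034612, 82985498 to 83195900). Chromosome 7 holds Chsy1 (ENSMUSG00000032640, 66109515 to 66173798) and Xylt1 (ENSMUSG00000030657, 117380979 to 117673580). Csgalnact2 (ENSMUSG00000042042) is on chromosome 6 from 118107452 to 118139140, Csgalnact1 (ENSMUSG00000036356) on chromosome 8 from 68356781 to 68735146 and Chpf (ENSMUSG00000032997) on chromosome 1 from 75474569 to 75479307. Among the 10, only Chsy1 shares annotated exon sequence with another gene, 148 bases with the antisense gene Gm26827. The methods name a stranded kit, but the strand setting of the counting is not given in the sources used here, so reads in that stretch cannot be assigned to one or the other.

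Promoter sequence is shown for 3 of the 4 genes whose values did not overlap between the groups, to set the sequence elements near their starts beside the expression values. The fourth is Dse, whose window lies in annotated exons and is not shown. Each sequence is the 250 bases before the RefSeq start on GRCm38.p6, 5′ to 3′ on the strand of the gene, with the GC box GGGCGG (or its complement CCGCCC) and the E-box CACGTG, the site that MYC and MAX bind, in capitals. The windows are chr10:82985247-82985496 on the plus strand for Chst11, chr6:118139141-118139390 on the minus strand for Csgalnact2 and chr7:66109242-66109491 on the plus strand for Chsy1.
Chst11: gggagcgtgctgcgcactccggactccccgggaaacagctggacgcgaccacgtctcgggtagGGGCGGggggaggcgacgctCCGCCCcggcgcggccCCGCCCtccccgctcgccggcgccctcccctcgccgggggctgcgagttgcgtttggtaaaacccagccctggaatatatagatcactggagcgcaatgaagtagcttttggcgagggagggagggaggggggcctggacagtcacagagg
Csgalnact2: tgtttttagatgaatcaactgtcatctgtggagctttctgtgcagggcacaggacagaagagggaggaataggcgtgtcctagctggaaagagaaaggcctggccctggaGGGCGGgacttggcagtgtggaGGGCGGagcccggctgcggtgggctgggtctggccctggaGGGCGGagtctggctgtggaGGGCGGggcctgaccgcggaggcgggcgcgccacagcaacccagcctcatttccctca
Chsy1: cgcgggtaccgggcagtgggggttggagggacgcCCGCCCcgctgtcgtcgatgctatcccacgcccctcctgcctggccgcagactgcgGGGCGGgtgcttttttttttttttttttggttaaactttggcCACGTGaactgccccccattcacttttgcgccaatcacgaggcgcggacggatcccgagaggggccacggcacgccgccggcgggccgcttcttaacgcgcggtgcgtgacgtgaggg

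Of the 10 genes, 7 had a window in the RefSeq table, and all 7 held at least 1 GC box, which 32.7% of 32851 windows of this length hold. Chst11 had 3, Chsy1 had 2, and Csgalnact2 had 4 in the window shown and 0 in that of a second annotated start. The windows of the 7 genes were 64.0% to 74.4% G and C, against a median of 52.4% over all windows. The E-box was found in 1 of the 7, Chsy1, and is held by 6.02% of all windows. The motif TGACGTCA was found in Chpf alone (1.55% of all windows), the RUNX core TGTGGT in Dse alone (14.0%), CCAAT in Chsy1 and Dse (33.8%) and TATAAA in none (12.4%). Both strands were searched, and these are matches of letters, not sites of binding. Xylt1, Csgalnact1 and Chsy3 were not searched.

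Of the 10 enzymes 2 passed the test, Dse and Chst11, both at lower levels in the Myc-knockin tumors. Dse was 3.22-fold and Chst11 3.68-fold lower by the group means. In the edgeR comparison of all 9 tumors, 7 of the 10 log2 fold changes were below 0, as were 43.8% of those of all genes, with a median of -0.96 over the 10 genes and 0.14 over all 15365 genes tested. Calls required a fold change above 1.5 together with an adjusted p below 0.05. By this rule 2 of the 10 were called lower, against 3.00% of all genes tested, and 0 were called higher, against 2.26% of all genes. Beside the 0 called higher, Csgalnact1 had an unadjusted p of 0.0312 (edgeR). No other of the 10 genes with a positive fold change was below 0.05. DESeq2 and limma-voom also called 0 of the 10 higher, against 10.1% and 4.32% of all genes. Of the 10, 0 were called lower without F325, F331 or F368, where 0.0373%, 0.0375% and 0.0292% of all genes were called lower. With library size alone 0 were called lower, against 0.56% of all genes. Without F187, M351 or M664 it was 1, against 1.22%, 1.27% and 2.97% of all genes. DESeq2 called 4 lower, and 7.30% of all genes. The groups did not overlap for 4 of the 10 genes, all lower in the Myc-knockin tumors, where 7.54% of all genes were lower without overlap and 5.41% higher. Whole tumors were sequenced, so fewer cells that express a gene and less of its RNA in each cell cannot be told apart.

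**Figure D1:**
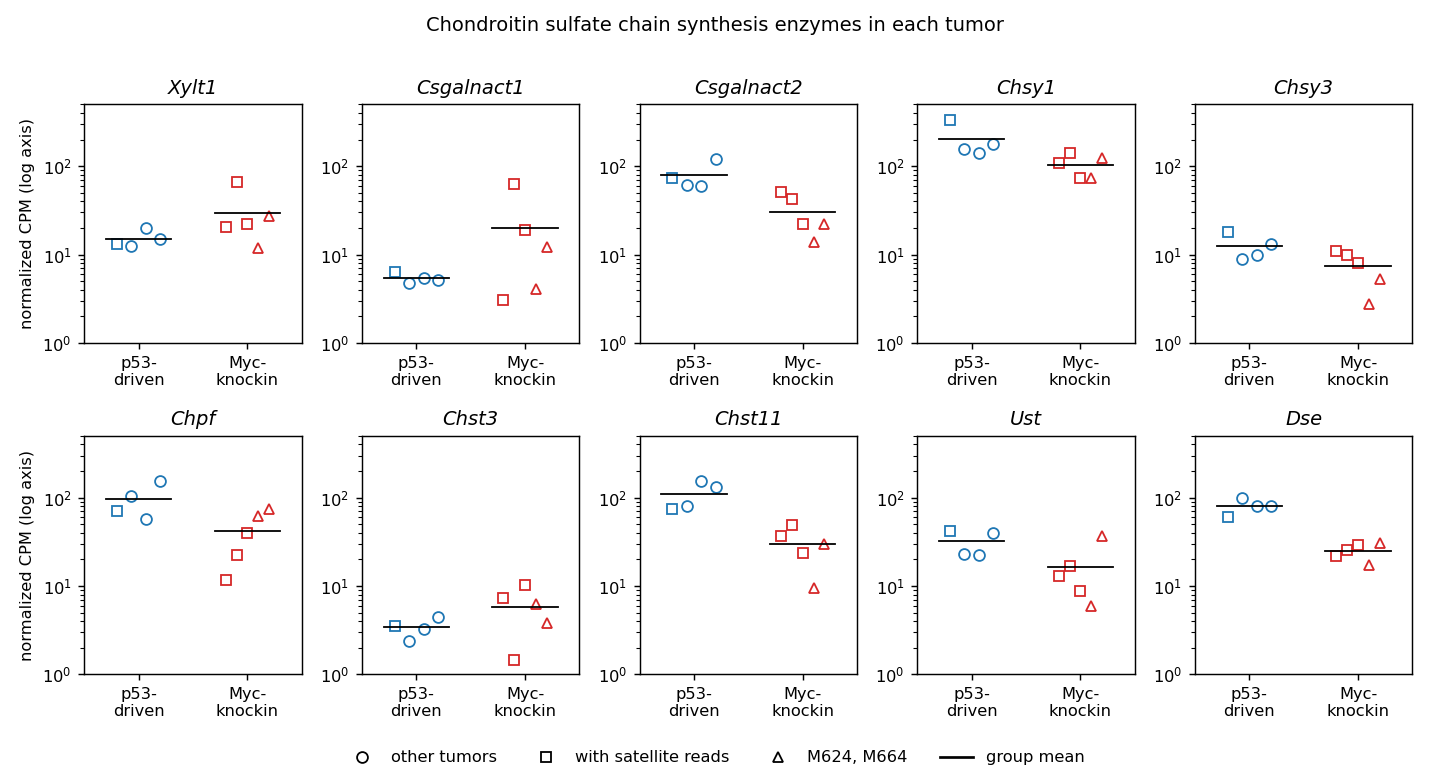
Normalized CPM of each of the 10 enzymes (log axis) in 4 p53-driven tumors (blue) and 5 Myc-knockin tumors (red). Each symbol is a tumor, squares mark the libraries with satellite reads, triangles mark M624 and M664, and black lines are group means; Dse, Chst11, Csgalnact2 and Chsy1 show no overlap between the groups.

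Dse, the epimerase that turns glucuronic acid into iduronic acid and so makes dermatan sulfate, had 60.0, 100.4, 80.5 and 80.8 CPM in F187, F325, F331 and F368, the p53-driven tumors. In M351, M408, M9, M624 and M664, the Myc-knockin ones, it had 22.2, 25.6, 29.5, 17.3 and 30.3 CPM. Every Myc-knockin tumor was below every p53-driven tumor, and the highest of them, M664, was at about the level of the next, M9. This was a log2 fold change of -1.69 (standard error 0.26), with an adjusted p of 0.0176 in edgeR's quasi-likelihood test after Benjamini-Hochberg adjustment across all 15365 genes. With M624 and M664 set aside it was -1.59 (edgeR adjusted p = 0.0297), and 1 of the 10 genes, Dse, was called there, against 2.81% of all genes tested called lower. The call was lost when F325, F331 or F368 was left out (edgeR adjusted p between 0.0640 and 0.0667). In those fits at most 0.0375% of all genes were called lower. With single tumors left out the log2 fold change of Dse stayed between -1.84 and -1.51.

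Chst11, the sulfotransferase that adds sulfate to carbon 4 of N-acetylgalactosamine in chondroitin, had 74.7, 80.8, 153 and 132 CPM in F187, F325, F331 and F368. Its values in M351, M408, M9, M624 and M664 were 36.9, 49.1, 23.9, 9.60 and 30.3 CPM. The groups did not overlap, and M624 was well below the other Myc-knockin tumors. Chst11 had a log2 fold change of -1.88 (standard error 0.43, edgeR adjusted p = 0.0364). Without M624 and M664 it was -1.50 and no longer passed (edgeR adjusted p = 0.0551). With single tumors left out it ranged from -2.13 to -1.58 and was called in 3 of 9 fits, those without M408, M9 or M624; without F187, F325, F331, F368, M351 or M664 the adjusted p from edgeR was between 0.0508 and 0.129. Chst3, which adds sulfate to carbon 6 of the same sugar, was the least expressed of the 10 genes per length. Chst3 had 2.41 to 4.50 CPM in the p53-driven and 1.47 to 10.4 CPM in the Myc-knockin tumors, with a log2 fold change of 0.73 (standard error 0.58, edgeR adjusted p = 0.448). The counts of Chst3 were few, between 8 and 165, and of the 9, 12 and 13 counts in F187, M351 and M9, 4.63, 7.29 and 8.08 were expected as genomic background.

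Ust, which adds sulfate to uronic acid, had 42.3, 22.9, 22.8 and 40.2 CPM in F187, F325, F331 and F368. The Myc-knockin values were 12.9, 17.03, 8.76 and 6.02 CPM in M351, M408, M9 and M624, and 36.4 CPM in M664. Only M664 reached the range of the p53-driven tumors. At -0.95 on the log2 scale (standard error 0.49, edgeR adjusted p = 0.238) the difference did not pass. It was -1.49 without M664 (edgeR adjusted p = 0.0600) and -0.40 once the 4 satellite-rich libraries were left out (edgeR adjusted p = 0.711).

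The 2 enzymes that add the first N-acetylgalactosamine of chondroitin had fold changes of opposite sign. Csgalnact2 had 73.5, 61.9, 59.6 and 120.1 CPM in F187, F325, F331 and F368 and 51.7, 42.1, 22.3, 14.0 and 21.9 CPM in M351, M408, M9, M624 and M664. All Myc-knockin tumors were below all p53-driven tumors, by a log2 fold change of -1.39 (standard error 0.40), which did not pass the edgeR test (adjusted p = 0.0651). It passed with DESeq2 (-1.36, adjusted p = 0.0165) and, in edgeR, without the 4 libraries with satellite reads (-2.14, adjusted p = 0.0200), where 12.1% of all genes were called lower. The Myc-knockin tumors in that last fit are M624 and M664 alone. Csgalnact1 was near 5 CPM in each p53-driven tumor, between 4.75 and 6.32 CPM. In M351, M408, M9, M624 and M664 it had 3.08, 62.5, 19.1, 4.08 and 12.1 CPM, so that 3 Myc-knockin tumors were above all p53-driven tumors and the other 2 below them. Its log2 fold change of 1.92 (standard error 0.78, edgeR adjusted p = 0.145) did not pass and was 0.83 without M408 and 0.69 without the 4 libraries with satellite reads. In M351 the 5 counts of Csgalnact1 were fewer than the 5.72 reads expected as background.

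Taken within each tumor, where the scaling of the library has no part, the ratio of Csgalnact1 to Csgalnact2 per kilobase of exon was between 0.0454 and 0.0976 in the p53-driven tumors. It was 0.0636 in M351 and 1.58, 0.915, 0.310 and 0.586 in M408, M9, M624 and M664. The ratio was thus above the p53-driven range in 4 of 5 Myc-knockin tumors and inside it in M351. With the expected background taken off, the values were 0 in M351 and 0.888 in M9, and the other Myc-knockin values were between 0.310 and 1.59. The ratio of Chst11 to Chst3 was 24.7 to 54.9 in the p53-driven tumors. It was 39.4 in M408 and 5.88, 2.71, 1.80 and 9.26 in M351, M9, M624 and M664, so that again 1 Myc-knockin tumor lay inside the p53-driven range. With background taken off it was 34.7 to 55.2 in the p53-driven tumors, 49.8 of these in F187, and 13.4, 44.8, 5.52, 1.80 and 9.29 in M351, M408, M9, M624 and M664. Both ratios are descriptions of the few counts on Csgalnact1 and Chst3 and were not tested.

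**Figure D2:**
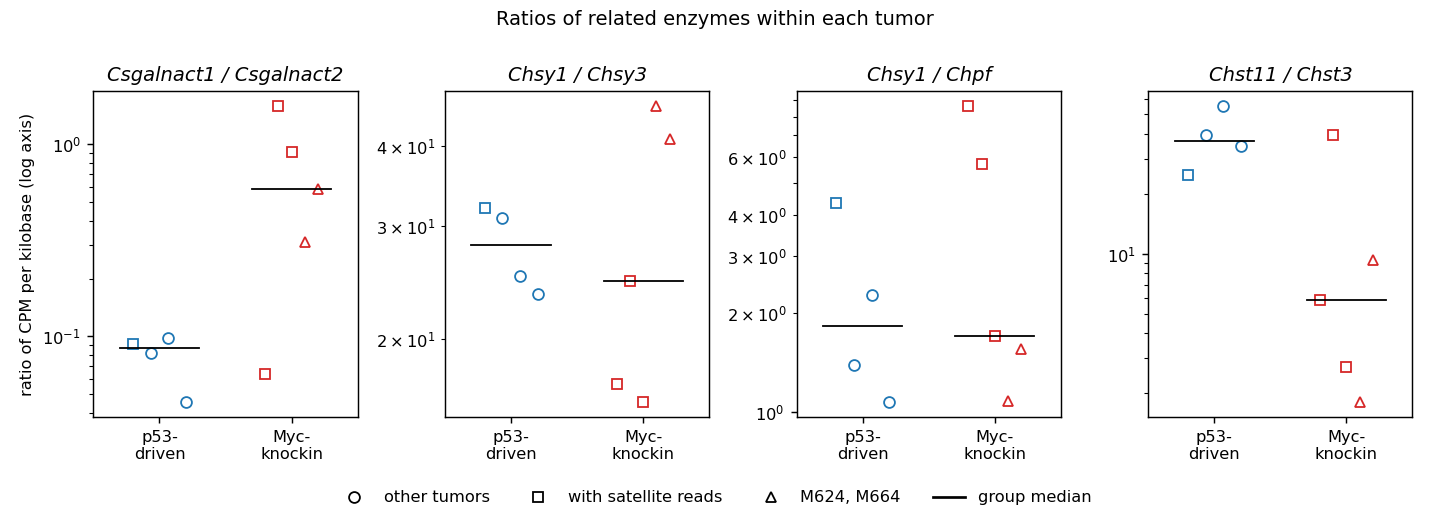
Ratio of CPM per kilobase of exon (log axes) for 4 pairs of enzymes within each of 4 p53-driven tumors (blue) and 5 Myc-knockin tumors (red), with group medians as lines. Csgalnact1 over Csgalnact2 has a median of 0.0868 in the p53-driven and 0.586 in the Myc-knockin tumors, and Chst11 over Chst3 a median of 36.9 and 5.88; 1 Myc-knockin tumor lies within the p53-driven range in each, and the pairs with Chsy1 overlap.

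In chain elongation the chondroitin synthases, among them Chsy1 and Chsy3, act together with polymerizing factors, among them Chpf. Chsy1 was the most expressed of the 10 genes per length in both groups, at 48.8 ± 21.4 CPM per kilobase (n = 4, SD) in the p53-driven and 24.9 ± 7.24 CPM per kilobase (n = 5, SD) in the Myc-knockin tumors. It had 336, 158, 142 and 180 CPM in F187, F325, F331 and F368 and 109, 141, 73.3, 73.2 and 124 CPM in M351, M408, M9, M624 and M664. The groups were separate by little, with 141.9 CPM in F331 and 140.7 CPM in M408, and the log2 fold change of -0.97 (standard error 0.34) did not pass (edgeR adjusted p = 0.103). Without F187, the highest tumor, it was -0.64 (edgeR adjusted p = 0.250), and DESeq2 called it lower (-0.95, adjusted p = 0.0415).

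Chpf had 71.5, 106, 57.6 and 155 CPM in F187, F325, F331 and F368. In M351, M408, M9, M624 and M664 it had 11.7, 22.7, 39.8, 62.5 and 73.5 CPM, so that M624 and M664 reached into the p53-driven range while the other 3 Myc-knockin tumors were below it. All 9 tumors together gave a log2 fold change of -1.20 (standard error 0.50, edgeR adjusted p = 0.151). It was -1.94 without M624 and M664 (edgeR adjusted p = 0.0543) and -0.61 once the 4 satellite-rich libraries were left out (edgeR adjusted p = 0.316). Over all 9 tumors limma-voom with quality weights called it lower (-1.94, adjusted p = 0.0332), as it did 6.51% of all genes. Chsy3 (ENSMUSG00000058152, chromosome 18, 59175401 to 59535999), the second synthase, had 8.87 to 18.2 CPM in the p53-driven and 2.74 to 11.1 CPM in the Myc-knockin tumors, with a log2 fold change of -0.79 (standard error 0.45, edgeR adjusted p = 0.286). Of its 10 counts in M9, 8.99 were expected as background.

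Xylt1 transfers the xylose that starts the linker, a step shared with heparan sulfate. It had 13.03, 12.5, 19.9 and 15.0 CPM in F187, F325, F331 and F368 and 20.3, 65.8, 22.3, 11.9 and 27.5 CPM in M351, M408, M9, M624 and M664. In 4 of 5 Myc-knockin tumors it was above every p53-driven tumor, and M624 was below them all. With background taken off, only M408 and M664, 2 of 5, were above every p53-driven tumor, and M624 was above F187. A log2 fold change of 0.97 (standard error 0.46, edgeR adjusted p = 0.199) did not pass, and it was 0.46 without M408 and 0.34 without the 4 libraries with satellite reads. Of the 33 and 28 counts in M351 and M9, 10.8 and 12.0 were expected as background, and with background taken off every library the value was 0.96 on the log2 scale (edgeR adjusted p = 0.228).

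**Figure D3:**
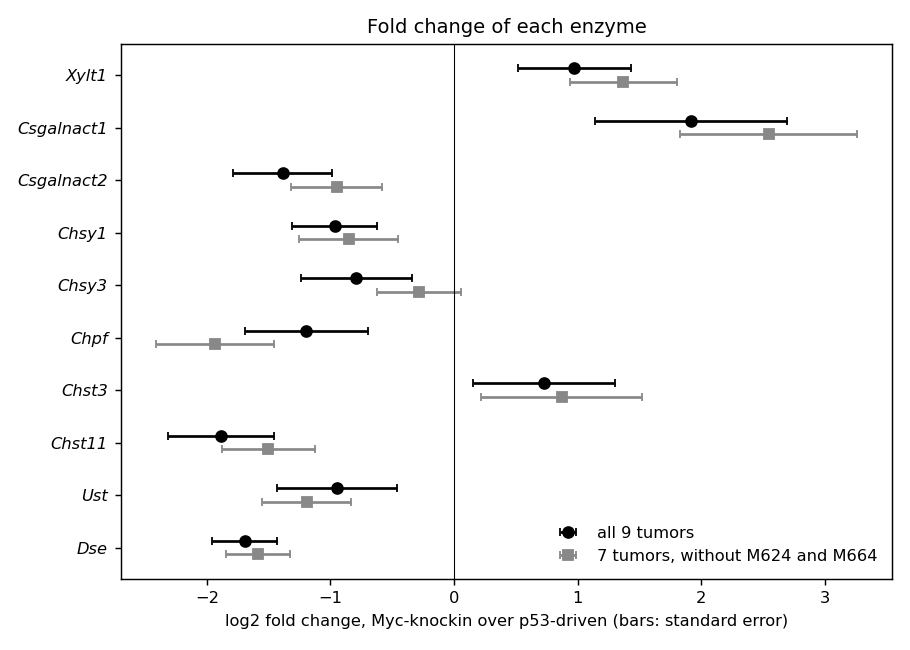
The log2 fold change of each enzyme, Myc-knockin over p53-driven, with its standard error from edgeR, for all 9 tumors (black circles) and for the 7 tumors without M624 and M664 (grey squares). In both fits 7 enzymes are below 0 and Xylt1, Csgalnact1 and Chst3 are above it; Chpf moves from -1.20 to -1.94 and Chsy3 from -0.79 to -0.29.

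The order of levels per kilobase was led by Chsy1 and Chpf in both groups. In the p53-driven tumors Chst11 (19.9 ± 6.98 CPM per kilobase, SD, n = 4), Dse (16.2 ± 3.31) and Csgalnact2 (14.5 ± 5.19) followed, neighbors that differed by less than their spread, then Ust (6.92 ± 2.31). Chsy3, Xylt1, Csgalnact1 and Chst3 came last, with means from 1.73 to 0.529 CPM per kilobase. In the Myc-knockin tumors Csgalnact2, Chst11 and Dse were close together, between 5.59 and 5.01 CPM per kilobase, and their ranges overlapped with those of Csgalnact1, Ust and Xylt1. Chsy3 and Chst3 were lowest there, at 1.02 and 0.903 CPM per kilobase. The span of Csgalnact1 among the Myc-knockin tumors, from 0.604 to 12.3 CPM per kilobase, was the widest fold range of the 10 genes in either group.

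**Figure D4:**
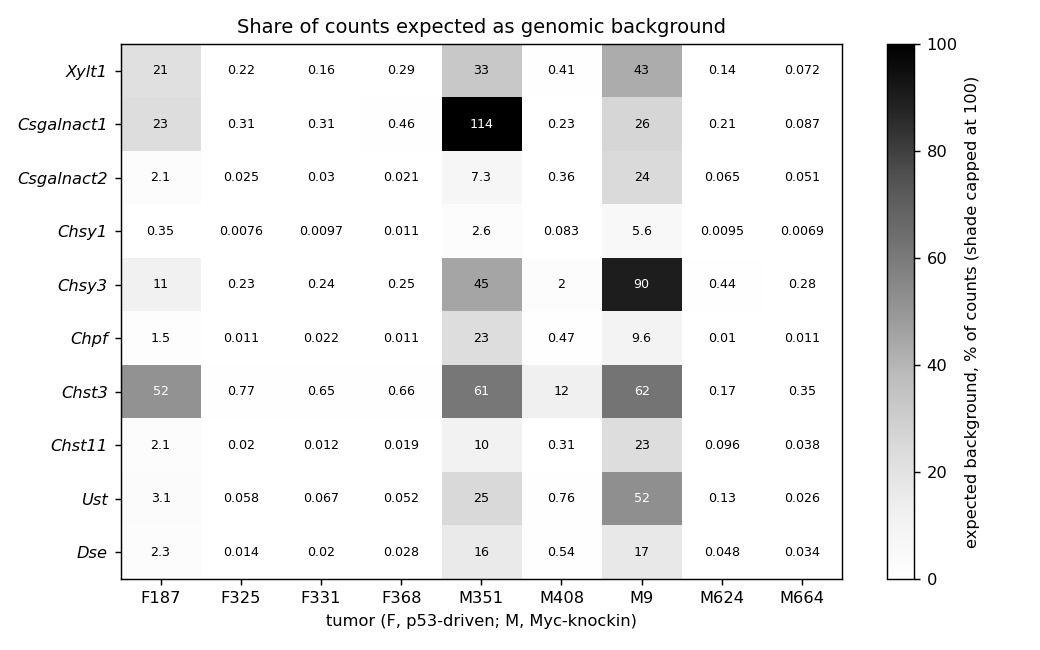
Share of the counts of each enzyme that was expected as genomic background, in percent, for each tumor, estimated from reads on chemosensory receptor genes. M9 and M351 have shares over 20% for 7 and 6 of the 10 enzymes and F187 for 3, while the other 6 tumors have at most 12.4%.

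The background reads bear mostly on the least expressed enzymes. Over the 10 genes together, the expected background was 22.0% of 323 counts in M9, 13.8% of 465 counts in M351, 2.30% of 1769 counts in F187 and at most 0.364% in the other 6 tumors. For Dse it was 16.7% in M9 and 15.5% in M351, and for Chst11 22.9% and 10.3%. With the background subtracted from every gene, Dse was at -1.64 on the log2 scale (edgeR adjusted p = 0.0143) and Chst11 -1.82 (edgeR adjusted p = 0.0316), and the same 2 genes were called.

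The shared position of 4 enzymes on chromosome 10 was compared with the other genes there. The median log2 fold change over the 731 tested genes of chromosome 10 was 0.09, at place 11 of 20 chromosomes from the lowest, and 3.56% of them were called lower. Of the 4 enzymes, Dse and Chst11 were called lower, Ust had -0.95 and Chst3 0.73.

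The rest of the pathway was described from lists of 76 other genes in the table, of which 68 were tested. Of these, 12 were called lower and 1 higher, and the median log2 fold change was -0.48, against 3.00% and 2.26% called and a median of 0.14 over all genes. The 12 became 7, 0, 1 and 1 when F187, F325, F331 or F368 was left out, and 3 with library size alone. Of all genes, 1.22%, 0.0373%, 0.0375% and 0.0292% were called lower in those fits, in this order, and 0.56% with library size alone. In the linker list, 1 of 6 genes was called, Fam20b, the kinase that phosphorylates xylose, with 78.4 ± 8.01 CPM (n = 4, SD) in the p53-driven and 37.7 ± 10.1 CPM (n = 5, SD) in the Myc-knockin tumors (log2 fold change -1.06, edgeR adjusted p = 0.0411). It was not called without M624 and M664 (-0.87, edgeR adjusted p = 0.0915). B4galt7, which adds the first galactose and had the highest level of the list, had -0.83 (edgeR adjusted p = 0.176). Chpf2, the second polymerizing factor, had -1.42 over all 9 tumors (edgeR adjusted p = 0.0765) and -1.89 without M624 and M664 (edgeR adjusted p = 0.0341). None of the 6 further sulfotransferase and epimerase genes was called with edgeR, though all 6 had negative log2 fold changes, and Chst12, a further enzyme for carbon 4 and the most expressed of them, had -0.63 (edgeR adjusted p = 0.376).

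Among 13 genes that supply sulfate and sugar nucleotides, 1 was called, Slc26a2, the sulfate transporter of the cell membrane. It had 70.8 ± 10.97 CPM (n = 4, SD) in the p53-driven and 32.1 ± 5.53 CPM (n = 5, SD) in the Myc-knockin tumors (log2 fold change -1.15, edgeR adjusted p = 0.0287). Without M624 and M664 it was not called (-0.99, edgeR adjusted p = 0.0540), while Slc35b2, which carries activated sulfate into the Golgi, moved from 0.02 to -1.12 and was called (edgeR adjusted p = 0.0461). Impad1, a Golgi phosphatase of the sulfation pathway and the most expressed of the list, had -0.57 (edgeR adjusted p = 0.291). Of 15 tested core proteins 3 were called lower: Bgn and Dcn, the small proteoglycans biglycan and decorin, and Csf1, the macrophage growth factor, which has a secreted form that carries chondroitin sulfate. Bgn, the most expressed core protein per length over the 9 tumors pooled, though below Cd74 in the Myc-knockin tumors, fell from 1409 ± 337 CPM (n = 4, SD) to 237 ± 90.9 CPM (n = 5, SD), and Dcn, which is also among the fibroblast markers, had a log2 fold change of -3.78 (edgeR adjusted p = 0.0265). Csf1 had 180 to 361 CPM in the p53-driven and 10.9 to 49.4 CPM in the Myc-knockin tumors (log2 fold change -3.00, edgeR adjusted p = 0.0148).

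The breakdown list held the most calls, 6 of 11 genes lower. Among these were Arsb, the sulfatase that removes the sulfate of carbon 4 (log2 fold change -3.82), Hexa (-2.26), a lysosomal hexosaminidase gene, Ids (-1.54), the iduronate sulfatase, Glb1 (-1.94), a galactosidase, and Sumf1 (-1.63), which activates sulfatases. Hexa had the highest level of the list per length. Lysosomal enzymes are abundant in osteoclasts and macrophages. In the same tumors 6 of 8 osteoclast and 3 of 12 macrophage markers were called lower, against 3.00% of all genes. All 8 osteoclast markers were below 0. Of the macrophage markers 7 were below 0 and 5 above it, and their sums overlapped between the groups. The part of these cells in the levels of the breakdown genes was not tested.

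Heparan sulfate is made on the same linker. Of its 16 tested genes 1 was called lower and 1 higher, and the median log2 fold change was 0.14. Ext1, a heparan polymerase, had 186 ± 64.2 CPM (n = 4, SD) in the p53-driven and 55.7 ± 7.47 CPM (n = 5, SD) in the Myc-knockin tumors, a log2 fold change of -1.74 (edgeR adjusted p = 0.0188), and Ext2, its partner, -0.77 (edgeR adjusted p = 0.170). Ext2 had the highest level per length over the 9 tumors pooled, but Ext1 was higher in the p53-driven and Ndst1 in the Myc-knockin tumors. Hs6st2, which adds sulfate to carbon 6 of glucosamine, was at 0.122 to 2.02 CPM in the p53-driven and 5.58 to 26.2 CPM in the Myc-knockin tumors (log2 fold change 3.96, edgeR adjusted p = 0.0289). Its 7 counts in M9 and 4 in F187 were fewer than the 9.71 and 5.56 expected as background, while 4 counts and 1 count were seen in F331 and F368.

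**Figure D5:**
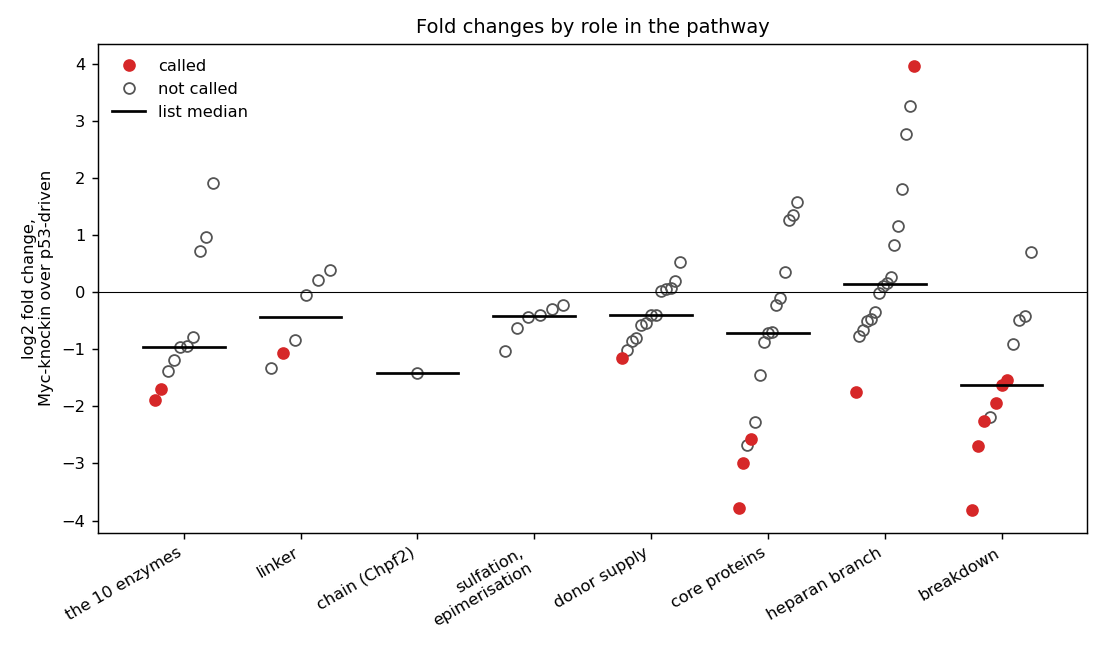
The log2 fold change, Myc-knockin over p53-driven, of the 10 enzymes and of the 68 tested genes of the other pathway lists, grouped by role; filled points were called, and lines are list medians. The breakdown list has the lowest median of the lists with several genes, -1.63, and the heparan branch is near 0 with points in both directions.

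Markers of several cell types moved with the genotype beside these enzymes. The summed level of the 16 osteoblast markers was 72500 to 156800 CPM in the p53-driven and 4749 to 47370 CPM in the Myc-knockin tumors, with 3 markers called lower and 16 of 16 below 0. The 8 osteoclast markers summed to 2716 to 14150 CPM in the p53-driven and 124 to 2570 CPM in the Myc-knockin tumors, and the 7 fibroblast markers to 2113 to 2633 and 582 to 1133 CPM. The 12 chondrocyte markers summed to 671 to 4177 and 198 to 501 CPM, with 0 of 9 tested markers called by edgeR, 4 above 0 and 5 below. Sums overlapped between the groups for macrophage markers (736 to 1342 CPM p53-driven, 261 to 893 CPM Myc-knockin), for endothelial markers (341 to 471 and 87.2 to 432 CPM) and for skeletal muscle markers (12.2 to 4845 and 9.03 to 1886 CPM). Of the defining markers, Ibsp, Sp7, Col2a1, Csf1r, Acp5, Pecam1 and Acta1, none was at 0 in any tumor. The part of any of these cell types in the levels of the 10 enzymes was not tested.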

How the data were processed

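The methods describe selection of mRNA by oligo-dT beads. Raw counts for 55367 genes in 9 columns were deposited, made, per the submitters' processing notes and the methods, with Trim Galore, STAR (mm10) and featureCounts. Versions of STAR and featureCounts, the strand setting and the treatment of multi-mapping reads are not given in the sources used here. The groups were compared by edgeR 4.0.16 under R 4.3.3 (glmQLFTest, TMM, filterByExpr with a minimum count of 10, no covariates), which kept 15365 genes, with Benjamini-Hochberg adjustment over them. Standard errors are the log2 fold change over the root of the F statistic. DESeq2 1.42.0 and limma 3.58.1 were alternatives. The fit was tested on simulated data. Positions and exon lengths come from GENCODE vM21 on the same genome, and promoters from RefSeq. Background is the count per kilobase on 1824 chemosensory receptor genes, scaled to exon length.

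The 10 genes and all lists were chosen with earlier results of these data known. Named are the 10 genes, every gene of the pathway lists that was called except 1 that is not reported here, the most expressed of each list per length, and Myc, Trp53 and defining cell type markers as checks; Rn7sk, Slc35b2, Cd74, Ndst1 and the fit without M9 and M351 were chosen after values were seen. Alternatives were other normalizations, filters and thresholds, DESeq2, limma-voom, each tumor left out, M624 and M664 or the 4 libraries with satellite reads left out, satellite genes removed, and the genomic background subtracted. Totals ranged from 2716322 to 17073285 counts, and a floor of 3 counts from 0.114 to 2.39 CPM. Background and floors cover counting error only. Nothing in the labels says whether tumors came from separate litters, and p-values measure the spread between these tumors.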

Additional observations from a re-analysis of the deposited data

Results flagged for a closer look

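In M408, a Myc-knockin tumor, Csgalnact1 was at 62.5 CPM and Xylt1 at 65.8 CPM, each far above the other 4 Myc-knockin tumors, with a gap to the next tumor of 0.730 and 0.711 of the whole range of the group. Both gaps are past Dixon's 95% critical value for 5 tumors, that of Xylt1 by little. The gaps were taken on CPM, where high values stand farther apart than on the log2 scale used for the fold changes, and were not examined on the log2 scale. They were 2 of 20 groups of tumors examined for the 10 genes. Chance flags about 1 in 20 only where values are normally distributed, which was not tested. M408 had 341 counts of Csgalnact1 and 359 of Xylt1, of which under 1% were expected as genomic background. Without M408 the log2 fold changes were 0.83 for Csgalnact1 and 0.46 for Xylt1, and neither gene was called with or without it.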

How the results depend on the processing

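No paired analysis was possible because the columns of the table carry no replicate numbers. Of the 10 enzymes, 0 were called higher under any of the alternatives. No log2 fold change of the 10 reversed in any of 228 values under the alternatives, of which 13 lost and 6 gained a call. The alternatives that change only a threshold keep the fold changes of the main fit and could not reverse. The number called lower, 2, was 0 with library size alone, 4 with DESeq2 and 1 without M624 and M664, and 0 to 2 when each tumor was left out (0 without F325, F331 or F368). Of the other pathway genes, 1 was called higher, against 2.26% of all genes. It was 0 with at least 10 counts in every tumor, against 8.46% of all genes, and 0 to 1 with single tumors left out. With DESeq2, at an adjusted p under 0.1, without M624 and M664, and without the 4 libraries with satellite reads it was 2. Of all genes 10.1%, 7.82%, 1.80% and 15.7% were called higher there, in this order. The 12 called lower became 3 under library size alone, 16 in limma-voom and 18 with DESeq2 or at an adjusted p under 0.1. Of all genes 0.56%, 6.51%, 7.30% and 6.81% were called lower there, in this order, and 3.00% in the main fit. With single tumors left out the 12 ranged from 0, without F325, to 15, without M9, against 0.0373% and 4.34% of all genes. Without F187, F331 or F368 they were 7, 1 and 1, against 1.22%, 0.0375% and 0.0292% of all genes. Calls over all genes moved from 809 to 8, 6 and 5 without F325, F331 and F368, 136 with library size alone, 1926 without M9 and M351, 2670 with DESeq2, and 4595 without the 4 libraries with satellite reads. In that last fit the enzymes called lower were 3 and the other pathway genes 12, against 12.1% of all genes. Higher genes made up 43.0% of all calls, 64.5% with upper-quartile normalization 58.0% with DESeq2 and 59.7% with at least 10 counts in every tumor. Library size alone moved the median log2 fold change of all genes from 0.14 to 0.03. The cause of these changes was not tested. Depth limits Chst3, Chsy3, Csgalnact1, Ust and Xylt1, whose counts in M351 and M9 were between 5 and 33. Other enzymes also had few counts there, with 19 for Chpf in M351 and 28 for Csgalnact2 in M9. Of the called genes, Chst11 had 60 and 30 counts in M351 and M9, and Dse 36 and 37.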
